A study of Mus musculus with 16 samples.

Results

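Long domains of H3K27me3, the trimethylation of lysine 27 on histone H3, were examined in hematopoietic stem cells of old and young C57BL/6 mice. A domain was a run of overlapping or touching H3K27me3 islands, merged over 5 of the 6 deposited H3K27me3 lists, that held an island of all 5 libraries and was at least 20000 bp wide. By this rule 2344 of 71865 merged regions were domains, which is 3.26% of them. The islands themselves chose the domains, so the H3K27me3 values of these 5 libraries are given as a description. The H3K4me3 and H3K36me3 lists took no part in the choice. A second set, the 3629 regions that also held an island of all 5 libraries but were narrower than the limit, is called the shorter stable regions.

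The old mice were 24 months of age and the young mice 4 months, and per the labels the strain was the same at both ages and no allele or treatment is named. The cells were primary bone marrow cells sorted as SP-KSL-CD150+, a gate on dye efflux and surface proteins that enriches long-term stem cells, and both ages went through the same gate. H3K27me3 was measured in 3 old and 3 young libraries, H3K36me3 in 3 old and 3 young libraries, and H3K4me3 in 2 old and 2 young libraries. The labels call every library a technical replicate and number the biological replicates without tying them to animals, so the spread between libraries may be partly technical and p-values measure that spread. Young H3K27me3 replicate 1 was left out by the rule, and its islands covered only 3.69% of the summed domain length, against 60.5 to 79.1% for the other 5. The identity of the sorted cells could not be checked at marker genes, because an annotation of the build of the files (mm9) was not used here. For the same reason domains are named by position and no gene is assigned to any of them.

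H3K27me3 is written by Polycomb repressive complex 2, whose catalytic subunit is EZH2 or EZH1, and is read and reinforced by the same complex through its EED subunit, so that the mark can spread over long stretches of chromatin. Its longest stretches in mammalian cells typically cover developmental regulators that the cell keeps silent, the Hox clusters being the textbook case. H3K4me3 marks promoters, and a promoter that carries it together with H3K27me3 is called bivalent. H3K36me3 is laid down along transcribed genes by SETD2, which travels with elongating RNA polymerase II, and nucleosomes that carry it are poor substrates for Polycomb repressive complex 2.

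The domains were wide but few. Their summed width was 95.1 Mb, or 3.68% of the span of the genome covered by the lists, against 44.9 Mb for the shorter stable regions. The median domain was 30400 bp wide, with quartiles of 23800 and 44650 bp, and the widest reached 412800 bp. The median shorter stable region was 12200 bp wide. A further 219 merged regions reached the width limit but lacked an island of at least 1 of the 5 libraries. By width, 1139 domains lay between 20 and 30 kb, 737 between 30 and 50 kb, 366 between 50 and 100 kb, and 102 at 100 kb or more. The narrowest domains were 20000 bp wide, and the widest regions just under the limit were 19800 bp wide. In the first of the narrowest domains in genome order (chr1:12675801-12695800) the islands covered 12200, 19400 and 12600 bp in the old libraries and 12600 and 12400 bp in the young. In the first region just under the limit (chr1:12969801-12989600) they covered 3600, 13000 and 1600 bp in the old libraries and 12400 and 4200 bp in the young.

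The name "stable" was only partly borne out by the lists. Of the summed domain length, 30.04% lay under islands of all 5 libraries, which is called the core here, 68.8% lay under islands of at least 3, and 13.3% under an island of a single library. In the shorter stable regions 23.0% of the length was core and 57.6% lay under at least 3 libraries. The median core of a domain was 6800 bp. In 395 domains (16.9%) the core alone reached 20000 bp. In 307 domains (13.1%) no base was shared by all 5 libraries. The cores summed to 28.6 Mb, and the largest measured 295600 bp.

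Agreement grew with width. The core made up 20.3% of the length of domains between 20 and 30 kb, 27.6% between 30 and 50 kb, 33.0% between 50 and 100 kb and 47.2% at 100 kb or more. Domains without a core numbered 228, 71, 8 and 0 in the same order. The rule itself used the width and the islands, so this order is a description of how the domains were put together.

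**Figure D1:**
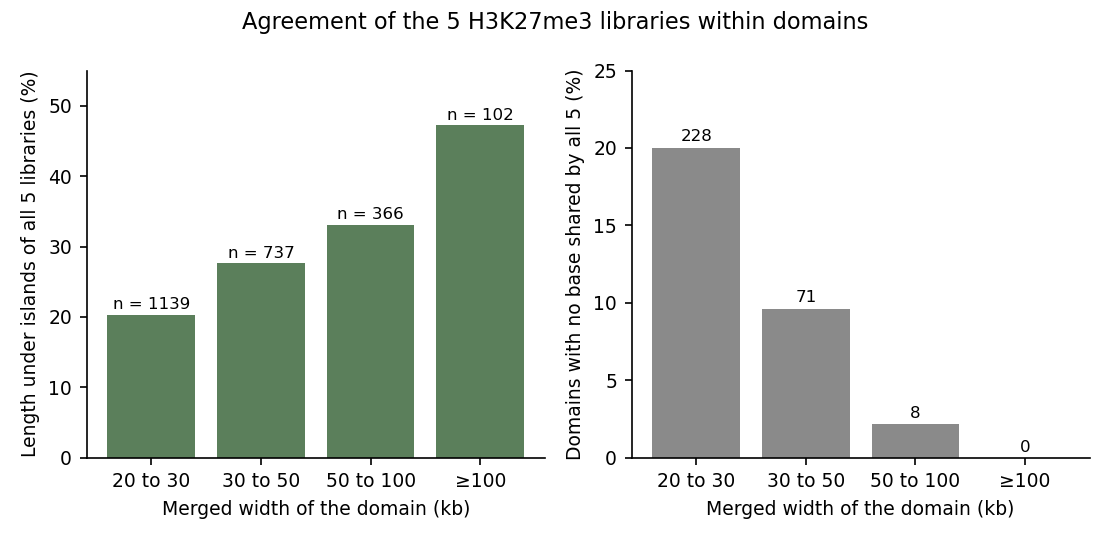
Left, the share of summed domain length (%) that lay under islands of all 5 H3K27me3 libraries, by merged width in kb, with the number of domains above each bar. Right, the share of domains (%) with no base common to all 5 libraries, with their number above each bar. The shared length is 20.3% in the narrowest class and 47.2% in the widest, and no domain of 100 kb or more lacks a shared base.

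The libraries cut the same domains in different ways. The islands covered 60.5, 79.1 and 62.7% of the summed domain length in old replicates 1, 2 and 3, and 66.0 and 66.8% in young replicates 2 and 3. Old replicate 2 stood above the other 4. It was the library with the greatest covered length in 1281 domains (54.7%), and in all of the 10 widest. It reached 31.9% of the domain edges, while the others reached 16.9 to 24.5%, and it alone covered 5.35% of the length, against 1.52 to 2.43% for each of the others. A domain held on average 3.63, 2.20 and 3.94 islands in the old libraries and 2.72 and 4.08 in the young. The 2 libraries with the fewest islands per domain, 1 old and 1 young, carry the number 18 in their titles, which the labels do not explain. A single island of at least 20000 bp was found in 308, 987 and 350 domains in the old libraries and in 506 and 341 in the young, so in each of the 5 libraries most domains were made of shorter islands.

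**Figure D2:**
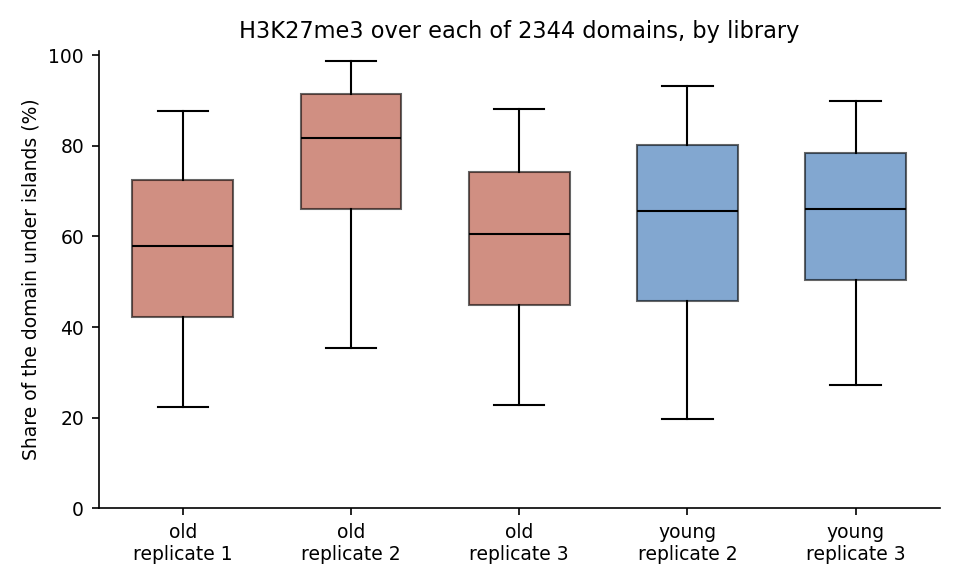
Share of each of the 2344 domains (%) that lay under H3K27me3 islands, in the 3 old libraries (red) and the 2 young libraries (blue) that the rule used. Boxes span the quartiles over domains with the median as a line, and whiskers reach the 5th and 95th percentiles. The medians are 57.8, 81.7 and 60.5% in the old libraries and 65.5 and 66.0% in the young, with old replicate 2 highest.

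The widest domain (chr15:102570201-102983000) was also the one with the largest core. The islands covered 365000, 403200 and 356800 bp of its 412800 bp in the old libraries and 379600 and 372600 bp in the young, so the ages overlapped. It was cut into 28, 6 and 32 islands in the old libraries and 16 and 24 in the young. It held 4 H3K4me3 regions shared by all 4 H3K4me3 libraries and no H3K36me3 peak in any library. The second widest (chr19:44655201-44992600) was 337400 bp wide, with 300000, 328600 and 305200 bp covered in the old libraries and 301600 and 301000 bp in the young. It held 3 shared H3K4me3 regions.

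The third widest domain (chr5:112931801-113257200) had no H3K4me3 peak in any library, although 254200, 295000 and 282000 bp lay under H3K27me3 in the old libraries and 248400 and 265400 bp in the young. Among the 10 widest, chr4:130536801-130779800 and chr6:114060001-114277800 were likewise free of H3K4me3. The domain at chr5:119218001-119495600 had a single H3K4me3 peak of 504 bp in old replicate 8 and none in the other libraries. The domains at chr5:35579001-35853400 and chr8:123362401-123622600 held 2 shared H3K4me3 regions each, and those at chr17:25450601-25702200 and chr8:12345201-12570200 held 1 each. Of the 10, only chr8:123362401-123622600 was touched by H3K36me3, with 0, 2485 and 2004 bp in the old libraries and 0, 1065 and 2155 bp in the young. Among these 10 domains the difference between the ages in covered length lay between -0.19 and 0.11 on the log2 scale.

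Domains clustered along the chromosomes. Of 2324 gaps between neighbours on a chromosome, 458 (19.7%) were shorter than 10 kb and 928 shorter than 50 kb, while the median gap was 107.5 kb. Joining domains across gaps under 50 kb gave 440 groups that held 1368 domains (58.4%), of which 63 groups had 5 or more. The largest group (chr4:127045801-128228200) held 16 domains that covered 1103400 of its 1182400 bp. The 928 short gaps, 14.0 Mb in all, were not empty of the mark. The islands covered 18.9, 24.0 and 21.2% of their length in the old libraries and 19.8 and 26.8% in the young, as islands that touch no domain.

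By chromosome, domains were most numerous on 7 (258 domains), 11 (236) and 5 (197) and fewest on 16 (33), X (4) and Y (0). These counts do not allow for chromosome length. As a share of chromosome span, domains took up most on 11 (7.92%) and 7 (6.68%). Among the autosomes they took up least on 3 (0.926%) and 16 (1.02%). Chromosome X held 0.171% of the domains but 3.24% of the 14489 H3K4me3 regions shared by all 4 libraries. Set against those H3K4me3 regions, there were 24.8 domains per 100 regions on chromosome 7 and 0.853 on chromosome X. The H3K27me3 lists as a whole were thin on X. The islands covered 0.451, 0.497 and 0.632% of X in the old libraries and 0.359 and 0.546% in young replicates 2 and 3, against 6.46, 6.59 and 7.02% of the autosomes in the old and 5.07 and 7.37% in the young. No source used here gives the sex of the mice or how reads on X were mapped, and the part of either in these values was not tested.

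Old and young libraries were next compared over the domains. Each library pools many cells, so fewer cells with the mark and less of it per cell cannot be told apart. The islands covered 64.1 ± 9.69 Mb of domain in the old libraries (SD, n = 3) and 63.1 ± 0.571 Mb in the young (SD, n = 2), a log2 difference of 0.01. These lists chose the domains, so the values are given without a test. The old libraries ranged on both sides of the young, with old replicate 2 at 75.2 Mb and the others at 57.5 and 59.6 Mb, against 62.7 and 63.5 Mb in the young. Without old replicate 2 the difference was -0.11. Within libraries of the same title number the old minus young difference was 0.26 for number 18 and -0.09 for number 20, which have opposite signs. The number of islands per domain was 3.26 ± 0.930 in the old libraries (SD, n = 3) and 3.40 ± 0.964 in the young (SD, n = 2), a log2 difference of -0.08. Within title numbers this difference was -0.31 for number 18 and -0.05 for number 20. It turned positive without old replicate 2, at 0.18, and without young replicate 3, at 0.22.

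Region by region the domains lay around 0. The log2 difference in covered length, old minus young, had a median of 0.02 over the 2344 domains, with quartiles of -0.27 and 0.31. The median was 0.08 over the shorter stable regions and -0.001 over all 26358 merged regions covered in at least 2 libraries. Of the 2344 domains, the difference exceeded 1 in 159 and was below -1 in 105. These lists chose the domains, and no such count was made over all regions, so nothing is read from these numbers.

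Every old library was longer than every young one in 370 domains (15.8%, background 9.13%), and every old library was shorter in 307 (13.1%, background 10.7%). Among all regions that held an island of the 5 libraries, 14.5% were longer in every old library and 10.1% shorter. The domains chosen by the rule are part of that set, so these shares describe them and nothing is read from their excess over the background.

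**Figure D3:**
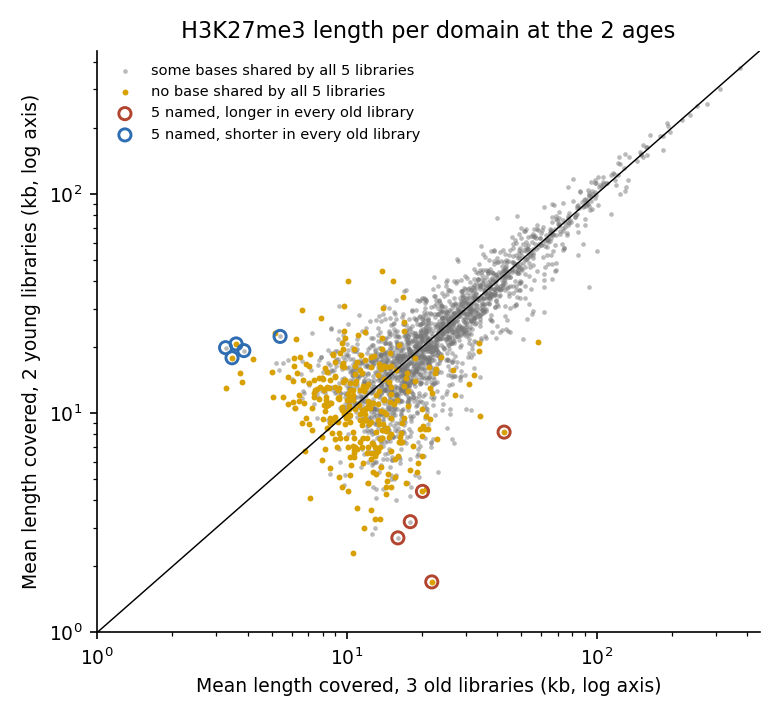
Mean H3K27me3 length (kb, log axes) of the 3 old libraries (horizontal) against the 2 young libraries (vertical), 1 point per domain. Grey points are domains with bases shared by all 5 libraries, yellow points the 307 domains without, and circles the 10 domains named for a difference between the ages. Long domains lie on the line of equal length, and the scatter widens among the short ones, where most of the domains without a core lie.

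The 5 domains named as longer in every old library had cores of 1800 bp at most, and in each the young libraries covered at most 8400 bp. The greatest difference (chr9:30416001-30446400) had 16000, 28800 and 20800 bp covered in the old libraries and 1800 and 1600 bp in the young. Old exceeded young there by 3.50 on the log2 scale. A wider one (chr15:87974001-88030600) had 38800, 43000 and 46000 bp in the old libraries and 8000 and 8400 bp in the young, a difference of 2.35. In neither of these was a base common to all 5 libraries. Both were picked for their age difference from the lists that chose the domains, so its size is a description only. The other 3 lay at chr8:10925001-10945400, chr4:46269801-46295600 and chr7:38942601-38965800, with differences of 2.70, 2.51 and 2.48.

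The 5 domains named as shorter in every old library likewise had cores of 1800 bp at most, and here the old libraries covered at most 10600 bp. The greatest difference (chr7:147383001-147409200) had 2200, 5600 and 2000 bp covered in the old libraries and 21400 and 18400 bp in the young, -2.68 on the log2 scale. These domains too were picked for their age difference. The next 3 were all on chromosome 9. The domain at chr9:97833201-97858600 had 6000, 2600 and 2200 bp in the old libraries and 20600 and 20800 bp in the young. The domain at chr9:97548601-97575200 had 7000, 2400 and 2200 bp in the old libraries and 25400 and 13200 bp in the young. The third lay at chr9:113355801-113383800, and the last, on chromosome 18, had 2800, 3400 and 4200 bp in the old libraries and 17400 and 18400 bp in the young. None of the 10 domains named for age held an H3K4me3 region shared by all 4 libraries or any H3K36me3 peak.

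At the other end, the least covered domains show how the rule can join scattered islands. The domain at chr3:34809601-34830200 had 3600, 15400 and 2400 bp covered in the old libraries and 3200 and 5000 bp in the young. Its 20600 bp of width thus came mainly from old replicate 2, and it had no core.

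H3K4me3 peaks lay in a minority of domains. Merging the 4 H3K4me3 lists gave 20660 regions, of which 1355 (6.56%) had their midpoint in a domain, and 660 of these were shared by all 4 libraries. At least 1 shared region was found in 558 domains (23.8%), with 475 domains holding 1, 67 holding 2, 13 holding 3 and 3 holding 4. No H3K4me3 library touched 1458 domains (62.2%). The share with a shared region was 20.6% between 20 and 30 kb and 44.1% at 100 kb or more, while the number per Mb was 9.52 in the narrowest class and 4.41 in the widest.

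**Figure D4:**
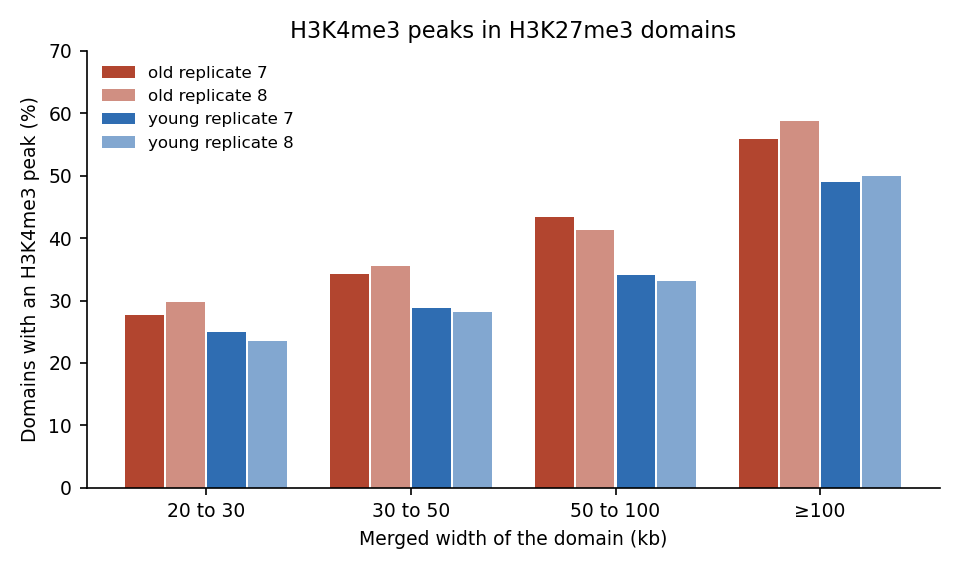
Share of domains (%) touched by an H3K4me3 peak, by merged width in kb, for old replicates 7 and 8 (red) and young replicates 7 and 8 (blue). In domains of 20 to 30 kb the share is 27.7 and 29.8% in the old libraries and 25.02 and 23.4% in the young, and in those of 100 kb or more it is 55.9 and 58.8% in the old and 49.0 and 50% in the young.

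H3K4me3 covered a smaller share of the domains than of the shorter stable regions in each library. It covered 1.22 and 1.49% of the domain length in the old libraries and 1.17 and 0.974% in the young, against 3.40 and 4.05% of the shorter stable regions in the old and 3.57 and 3.06% in the young. The ratio of domains to shorter stable regions averaged -1.54 ± 0.10 on the log2 scale (SD, n = 4) and was negative in 4 of 4 libraries (exact two-sided sign-flip permutation test, p = 0.125, the smallest that 4 libraries allow; adjusted p = 0.167 over 4 tests). The 2 sets were split by width, and this ratio divides by width. It does not show that a domain held less H3K4me3 than a shorter region. By midpoint, 1355 H3K4me3 regions lay in the 2344 domains and 1525 in the 3629 shorter stable regions. The share in the surroundings was close to that in the domains. In the 20 kb on either side, H3K4me3 covered 1.18 and 1.39% in the old libraries and 1.29 and 1.19% in the young. The ratio of flanks to domains averaged 0.07 ± 0.18 on the log2 scale (SD, n = 4; exact sign-flip permutation test, p = 0.625). It was -0.05 and -0.10 in the old libraries and 0.15 and 0.28 in the young, and with the limit set at 10 kb the mean turned to -0.29, while for peaks at or above the median score of their list it was 1.75.

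The H3K4me3 peaks of domains were small and of low score. Shared regions in domains had a median width of 1606 bp, close to 1624 bp in the shorter stable regions and below 2081 bp elsewhere. The median score of a peak in a domain ranked at the 24.0 and 26.8 percentile of its own list in the old libraries and at 21.5 and 21.2 in the young. Peaks elsewhere ranked at 48.8 and 52.3 in the old and 41.1 and 40.3 in the young. Many peaks tied at the median score of 3100 in old replicate 7 and in both young libraries, and tied peaks took the lowest rank of the tie. The ranks of peaks elsewhere therefore cannot be compared between the ages. The domains held 6.30 and 6.03% of all peaks in the old lists, but 1.32 and 1.23% of those at or above the median score. In the young lists they held 5.35 and 5.10% of all peaks and 1.23 and 1.22% of those at or above the median.

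Within the domains, shared H3K4me3 regions lay toward the middle. Measured from the nearer edge to the centre in steps of 10% of the width, there were 74, 104, 126, 155 and 201 regions. The H3K27me3 islands also covered these regions. They lay over 87.6, 93.6 and 87.6% of the length of the 660 shared regions in the old libraries and 93.0 and 90.6% in the young. The remaining length of the same domains was covered to 69.2, 85.9 and 71.1% in the old libraries and 74.5 and 73.2% in the young. That remaining length includes the domain edges, which an island of a single library can set. The part of position within the domain in this difference was not tested. In domains without a shared H3K4me3 region the islands covered 56.9, 76.4 and 59.2% in the old libraries and 62.4 and 64.1% in the young. The median core was 13800 bp in domains with a shared H3K4me3 region and 5100 bp in those without, and a core was missing in 5 of 558 and in 302 of 1786. These are descriptions of lists called separately, and co-occurrence in a list does not show that both marks sat on the same nucleosomes or in the same cells.

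The domains with the most H3K4me3 had it in all 4 libraries. The first (chr11:95981001-96164000) was 183000 bp wide, with a core of 128800 bp, and had 17606 and 21108 bp under H3K4me3 in the old libraries and 13059 and 11687 bp in the young. Both old H3K4me3 libraries were above both young ones there. Its H3K27me3 covered 154400, 160400 and 157800 bp in the old libraries and 161400 and 166800 bp in the young, a log2 difference of -0.06. The H3K27me3 lists chose the domains, so nothing is read from this small difference. The second (chr2:115875801-115919600) had 6990 and 7769 bp of H3K4me3 in the old libraries and 5067 and 4472 bp in the young. The widest domain of all came next, with 7231 and 7283 bp in the old and 5233 and 4398 bp in the young. In the following one (chr19:46203601-46229000) the ages overlapped, with 5831 and 5652 bp in the old libraries and 6173 and 4985 bp in the young. The last of the 5 (chr13:22068801-22114800) had 5426 and 6771 bp in the old libraries and 4997 and 5107 bp in the young.

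More domains carried H3K4me3 peaks in each old library than in either young one. Peaks touched 784 and 812 domains in the old libraries and 672 and 646 in the young, and the number of peaks touching a domain was 1202 and 1229 in the old and 898 and 854 in the young. The old lists were also longer in number of peaks, at 18675 and 19923 against 16314 and 16258 in the young. As a share of its own list, the domains' peaks made up 6.44 and 6.17% in the old libraries and 5.50 and 5.25% in the young. The length under H3K4me3 in domains was 1.29 ± 0.180 Mb in the old libraries and 1.02 ± 0.132 Mb in the young (SD, n = 2 each), a log2 difference of 0.34 (exact two-sided permutation test, p = 0.333, the smallest that 2 against 2 allow; adjusted p = 0.667 over 4 tests). Between the 2 libraries with title number 18, 1 of each age, it was 0.06.

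Among high-scoring peaks the counts of the ages were close. Counting only peaks at or above the median score of each list, 136 and 135 domains were touched in the old libraries and 134 and 133 in the young, and the log2 difference in length was 0.13 (exact permutation test, p = 0.667). Because of tied scores, this cut kept 9563 of 18675 and 9962 of 19923 peaks in the old lists. It kept 9611 of 16314 and 9707 of 16258 in the young, a larger share, so the ages were not compared at the same strictness.

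In the fit over all 17307 H3K4me3 regions covered in at least 2 libraries, 1032 of the 1355 regions in domains could be tested and 0 of them passed an adjusted p of 0.05 in limma (background 0.0%), with no adjusted p below 0.348. With p-values left unadjusted, 161 (15.6%) were longer in old at 0.05 against a background of 6.04%, and 12 (1.16%) were shorter against 1.2%. Every old library was longer than every young one in 315 (30.5%, background 16.5%), and every old library shorter in 90 (8.72%, background 14.6%). These counts hold 132 regions present in both old libraries and in neither young one, and 3 of the opposite kind, which passed the filter only through the age where they were present. Over the whole genome there were 792 of the first kind and 48 of the second, so that domains held 16.7% of the first and the shorter stable regions 12.2%. Among the 660 regions shared by all 4 libraries, 142 (21.5%) were longer in every old library, against 12.6% of all 14489 shared regions, and 79 (12.0%) were shorter, against 16.2%. The shorter stable regions leaned the same way. Of their H3K4me3 regions 10.1% were longer in old and 1.53% shorter without adjustment, 23.7% were longer in every old library and 11.3% shorter, and of those shared by all 4 libraries 17.1% were longer and 13.1% shorter. Whether domains and shorter stable regions differ in this was not tested. The median log2 difference over those 660 regions was 0.06, and over all shared regions -0.01. The 1032 regions tested in domains include the 132 that were present only in the old libraries. With all 4 libraries the median log2 difference over the 1032 was 0.15. It was 0.05 over the tested regions in shorter stable regions and 0.005 over all 17307. When 1 library was left out, which left a single library at that age, the median in domains lay between 0.0079 and 0.25. With only peaks at or above the median score, 131 regions were left to test in domains and their median difference was 0.01.

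The H3K4me3 region in a domain with the greatest difference in either direction was small and absent from 1 age. At chr2:105514153-105515783, inside a domain of 54000 bp, 849 and 1631 bp were covered in the old libraries and 0 and 0 bp in the young. At chr10:79652552-79653754, inside a domain of 21200 bp, 0 and 0 bp were covered in the old libraries and 817 and 850 bp in the young. Both entered the fit only through the age where they were present, and a covered length of 0 at the other age favours them in this ranking. Neither reached the limma threshold, and they are given as examples only.

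H3K36me3, the mark of transcribed gene bodies, was nearly absent from the domains. It covered 0.111, 0.156 and 0.108% of their length in the old libraries and 0.0162, 0.0427 and 0.136% in the young, against 2.66, 3.88 and 3.89% of the whole span in the old and 0.229, 1.61 and 5.34% in the young. Young replicate 4 had a short list of 6399 peaks, where the others had 39362 to 84437, and was low everywhere. No H3K36me3 library touched 2231 domains (95.2%), 1 domain was touched by all 6, and 22 by every library except young replicate 4.

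Outside the domains H3K36me3 was more frequent in each library. In the 20 kb on either side it covered 2.28, 3.39 and 3.68% in the old libraries and 0.131, 1.63 and 4.48% in the young. The ratio of flanks to domains averaged 4.53 ± 0.83 on the log2 scale (SD, n = 6), a 23.2-fold difference, and was positive in 6 of 6 libraries (exact two-sided sign-flip permutation test, p = 0.03125, the smallest that 6 libraries allow; adjusted p = 0.0625 over 4 tests). It was smallest in young replicate 4, at 3.01. Between 95 and 100 kb outside a domain H3K36me3 covered 4.03, 6.56 and 6.85% in the old libraries and 0.215, 2.80 and 8.78% in the young. In the last 5 kb before the edge it covered 1.22, 1.92 and 2.13% in the old and 0.0663, 0.962 and 2.64% in the young. In the first 5 kb inside it covered 0.216, 0.365 and 0.323% in the old and 0.0240, 0.126 and 0.375% in the young.

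**Figure D5:**
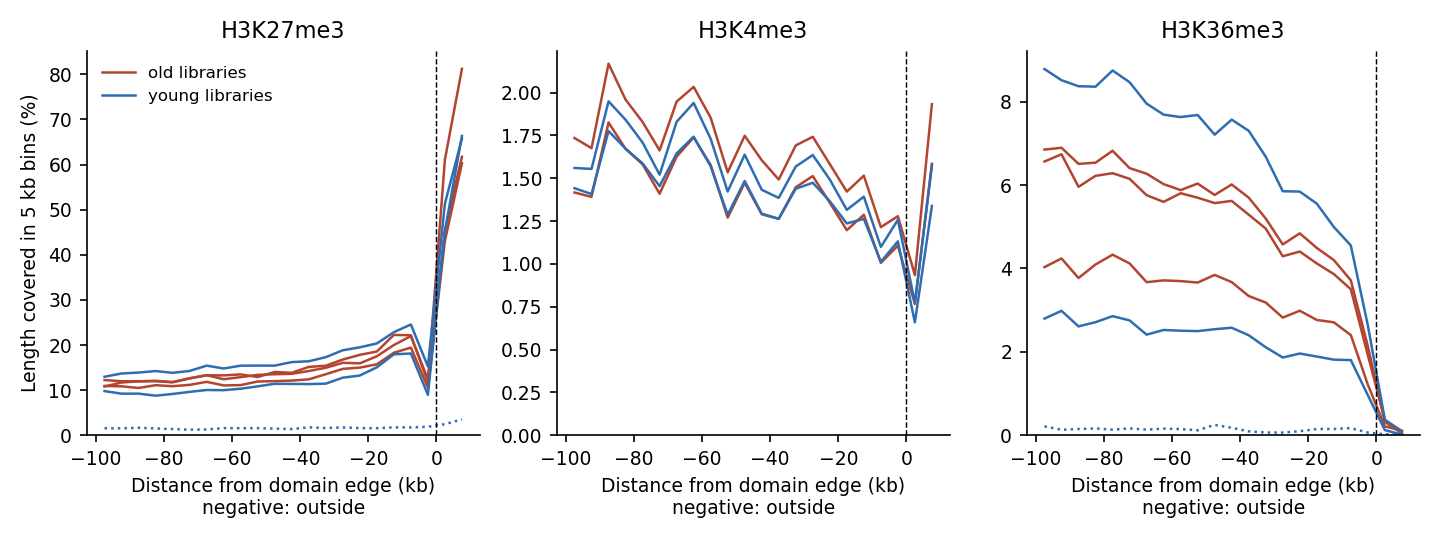
Length covered (%) in 5 kb bins against the distance from the domain edge (kb, negative outside), both edges averaged and bins that reach another domain left out, for H3K27me3, H3K4me3 and H3K36me3. Solid lines are old (red) and young (blue) libraries, and dotted lines young H3K27me3 replicate 1 and young H3K36me3 replicate 4. H3K36me3 declines over the 100 kb before the edge and lies below 0.4% in the first 5 kb inside in each library, while H3K4me3 is between 0.660 and 0.935% there.

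H3K36me3 also covered a smaller share of the domains than of the shorter stable regions in each library. The shorter regions were covered to 0.199, 0.271 and 0.251% in the old libraries and 0.0686, 0.135 and 0.298% in the young. The ratio of domains to shorter regions averaged -1.29 ± 0.50 on the log2 scale (SD, n = 6) and was negative in 6 of 6 libraries (exact sign-flip permutation test, p = 0.03125; adjusted p = 0.0625). Neither H3K36me3 ratio passed 0.05 after adjustment, since 6 libraries allow no smaller p. The ratio of domains to shorter regions also divides by the width that split the sets. It does not show that a domain held less H3K36me3 than a shorter region. By midpoint, 132 H3K36me3 regions lay in the 2344 domains and 105 in the 3629 shorter stable regions.

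A few domains did carry the mark. The most was found at chr8:46017201-46122000, a domain of 104800 bp with 18684, 16851 and 13530 bp under H3K36me3 in the old libraries and 0, 2770 and 10138 bp in the young. Every old library was above every young one there. H3K27me3 covered 87600, 98200 and 96600 bp of the same domain in the old libraries and 87600 and 81200 bp in the young, so the 2 marks overlapped within the merged width. Its neighbour at chr8:46124801-46177400 had 4715, 3749 and 4859 bp of H3K36me3 in the old libraries and 0, 1145 and 2720 bp in the young. The domain at chr8:114329801-114359000 had 14234, 15119 and 6082 bp in the old libraries and 0, 3558 and 12510 bp in the young, with the ages overlapping. The remaining 2 of the 5 with the most, chr5:36810601-36832600 and chr10:126942601-126980600, had at most 5364 and 4778 bp in a library.

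Summed over domains, H3K36me3 covered 119 ± 25.6 kb in the old libraries and 61.8 ± 60.0 kb in the young (SD, n = 3 each), a log2 difference of 1.44 (exact two-sided permutation test, p = 0.3, the smallest possible being 0.1; adjusted p = 0.667). The old libraries had 105, 148 and 103 kb and the young 15.4, 40.6 and 129.6 kb, so the ages overlapped. Within title numbers the difference was 2.77 for number 16 and 1.34 for number 18, and without young replicate 4 it was 0.69. In the fit over 45189 H3K36me3 regions, of the 132 regions in domains 54 could be tested and 0 passed in limma (background 0.0%; smallest adjusted p = 0.911), while without adjustment 3 (5.56%) were longer in old at 0.05, against a background of 0.558%, and 0 were shorter, against 0.0111%. Every old library was longer than every young one in 7 of the 54 (13.0%, background 4.0%), and shorter in 0 (background 0.0465%). These counts hold 2 regions present in all 3 old libraries and in no young one, which passed the filter only through the old libraries. Over those 54 regions the median log2 difference was 1.404, beside 0.81 over all regions tested, and without young replicate 4 the medians were 0.58 and 0.06.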

How the data were processed

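Each of the 16 libraries came as a peak list of its own. The submitters' processing notes list CASAVA 1.4, SICER, MACS and mm9. The sources used here give no aligner, threshold, control library, SICER or MACS version or read depth, so no counting error can be stated. Per the labels' protocols, sonicated chromatin was immunoprecipitated and a ThruPLEX kit was used for the libraries. The deposited H3K27me3 bounds lie on a 200 bp grid, and 1 was added to each end before merging. The score of each peak is the authors' own, with no stated unit, and only ranked peaks within a list.

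The length under peaks per region was tested as log2(bp + 200) with limma 3.58.1 in R 4.3.3 (trend, empirical Bayes), keeping regions that 2 or more libraries covered; p-values were adjusted by Benjamini-Hochberg over all of them, with a threshold of 0.05. Values per library went through exact permutation or sign-flip tests, adjusted over 4 tests in each family. The H3K27me3 lists chose the domains, so p-values of their age differences are not printed for domains. Other steps used Python 3.11.15, and the fits were tested on simulated data. Shared replicate numbers were not taken as pairs. Alternatives covered the pseudocount, filter, score threshold, centring, width limit, flank, replicate block and leaving out each library. The restriction to domains with a core was chosen after seeing the data.

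Domains named were the 10 widest, the 5 of greatest positive and 5 of greatest negative age difference among those whose ages do not overlap, the 5 with most of each other mark, the 3 least covered and 3 at either side of the limit, ties being taken by position. Single H3K4me3 regions, of those with the greatest age difference, were picked after their values were seen. The rule for the domains and all lists were chosen with earlier results of these data known.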

Additional observations from a re-analysis of the deposited data

Results flagged for a closer look

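Young H3K27me3 replicate 1, which entered neither the rule nor the comparisons, had islands in 536 of the 2344 domains (22.9%). It was flagged as a signal in a list that the comparisons did not use. Its list was of ordinary length, with 46988 islands over 6.54% of the span, yet it covered 3.69% of the domain length and 3.81% of the shorter stable regions, and 2.08% of its own length lay in domains, against 34.9 to 51.0% in the other 5. In the widest domain it covered 57000 bp. What set this library apart was not tested.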

How the results depend on the processing

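Of 152 values of the comparisons under an alternative, 117 kept their direction and side of the threshold. The log2 difference in H3K27me3 length changed sign with a width limit of 40 kb (-0.0018) and in domains with a core of at least 20000 bp (-0.0085), and ranged between -0.11 and 0.085 when 1 library was left out. That in islands per domain was 0.98 with young replicate 1 included (1.401 for length) and -0.37 to 0.22 with 1 library left out. The H3K4me3 ratio of flanks to domains was -0.29 with a limit of 10 kb and -0.0032 to 0.12 with 1 library left out, and that of domains to shorter stable regions -1.58 to -1.51. The H3K36me3 ratios were 4.39 to 4.84 (flanks to domains) and -1.39 to -1.13 (domains to shorter stable regions) with 1 library left out, each at an exact p of 0.0625, the smallest that the fewer libraries allow. The length differences then ranged between 0.20 and 0.48 for H3K4me3 and between 0.69 and 2.23 for H3K36me3. The number of H3K27me3 regions past the limma threshold was 0 of 26358, 146 of 71865 without the filter (63 of them domains), 155 of 24340 without young replicate 2 (43 domains) and 885 of 19612 without young replicate 3 (168 domains), and 0 when any 1 old library was left out. For H3K4me3 it was 19, with 1 in domains, when 3 libraries were required, and 16 to 94, with 0 to 9 in domains, with 1 library left out. The H3K27me3 lists chose the domains, so nothing is read from the numbers of domains among the H3K27me3 regions. Leaving out a young H3K27me3 library, or any H3K4me3 library, left a single library at that age. Such a fit has no spread between libraries at that age, so its numbers only describe how unsteady the count is. The cause of these changes in number was not tested. Centring subtracts 1 value per library, so it shifts all regions alike. It moved the median H3K27me3 difference of all regions from -0.001 to -0.61 and that of domains from 0.02 to -0.58. The distance between these medians is left unchanged by this step, so no conclusion is drawn from it. With the replicate block, 0 regions of any mark passed in limma and the H3K27me3 length difference was 0.09; deviations of same-numbered libraries correlated at 0.10 and 0.09 for H3K27me3 and between -0.03 and 0.06 for the other marks. Read depth, which these lists do not give, limits every comparison of covered length.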

Other observations

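Domains lay nearer to H3K4me3 than to H3K36me3 peaks. Counting a domain that held a peak as distance 0, the median domain lay 28.7 and 26.6 kb from the nearest H3K4me3 peak of the old libraries and 44.9 and 46.6 kb from that of the young. A peak lay within 20 kb of 45.1 and 45.7% of domains in the old H3K4me3 libraries and of 39.5 and 38.5% in the young. For H3K36me3 the median distance was 123, 112 and 114 kb in the old libraries and 532, 118 and 108 kb in the young, the 532 kb belonging to young replicate 4 with its short list. Peaks within 20 kb were found for 15.7, 17.5 and 17.6% of domains in the old H3K36me3 libraries and for 2.99, 16.7 and 19.2% in the young. These distances shrink as a list grows, and no test was made of them.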
